A study of Mus musculus with 18 samples.

Results

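The genes described here are 34 genes of the mouse sarcomere, the Z-disc and the stretch-sensing machinery attached to it, out of 18193 genes that have at least 1 probe set of their own on the array. They were chosen by name, with earlier results of these data known, so the shares of them called below are a description only. Every probe set annotated to 1 of these symbols alone was kept, which gave 74 of the 45037 probe sets tested. Actins and myosins were left out of the set. By role they fall into 11 thin filament genes (Tpm1, Tpm2, Tpm3, Tnnt1, Tnnt2, Tnni1, Tnni3, Tnnc1, Lmod2, Tmod1, Nebl), 4 genes of titin, the thick filament and the M-band (Ttn, Myom1, Myom2, Mybpc3), 10 Z-disc genes (Actn2, Ldb3, Tcap, Csrp3, Myoz2, Mypn, Nexn, Pdlim5, Xirp1, Flnc), 3 genes of the costamere and intermediate filaments (Des, Vcl, Dmd) and 6 stretch-sensing and signalling genes (Ankrd1, Ankrd2, Fhl1, Fhl2, Smpx, Rcan1). RNA from the left ventricle of wild-type female C57Bl/6 mice aged 3 to 4 months was hybridised to 18 arrays in 6 groups of 3. NP/Sed were sedentary virgins in diestrus, 7EX and 21EX ran voluntarily on wheels for 7 and 21 days, MP were at day 11 of pregnancy, LP at days 18 to 19, and 0PP were killed at most 12 hours after giving birth. The RNA of 2 to 3 hearts was pooled in equal parts for each array, so n = 3 pools in every group and p-values measure the spread between pools.

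The sarcomere is the contractile unit of heart muscle, in which thin filaments of actin, tropomyosin and troponin slide past myosin thick filaments. Thin filaments are anchored in the Z-disc and thick filaments in the M-band, with titin spanning the distance between both as an elastic spring. Several Z-disc and titin-bound proteins also carry signals to the nucleus, so genes such as Ankrd1 are well known as markers of a stretched or overloaded ventricle.

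All values are log2 values made by the authors with RMA, and differences are log2 differences ± standard error. A probe set is said to rise or fall where the limma p (two-sided, Benjamini-Hochberg adjustment over the 45037 probe sets) is under 0.05, with no limit on the size of the change. Because values of different probe sets are not on a common scale, no level is compared between genes. The arrays carried heart muscle RNA throughout: the mean of 7 cardiomyocyte markers lay between 14.02 and 14.11 in every array. The mean of 9 skeletal muscle markers lay between 4.38 and 4.57, beside array medians of 4.93 to 5.02. The mean of 4 atrial markers varied within groups, from 8.31 to 9.54 in NP/Sed and from 8.93 to 10.59 in MP, and limma called 0 of the 4 in each of the 6 comparisons below, with at most 2 at an unadjusted p under 0.05, and 0 of the 9 skeletal muscle, 4 smooth muscle and 4 endothelial markers, with at most 3 of a list at an unadjusted p under 0.05. Markers of other cells were called in several groups. Of 5 macrophage markers, 4 were higher than NP/Sed in MP, 2 in 0PP (Cd68 and Cd163), and 1 each in 7EX, 21EX (Cd68) and LP (Cd163), and their mean lay between 7.39 and 7.59 in NP/Sed, from 7.67 to 7.94 in the exercise groups, from 7.92 to 8.07 in MP, from 7.76 to 8.03 in LP and from 7.87 to 7.98 in 0PP. Of 5 fibroblast markers, 2 were higher in MP, 1 was higher (Dcn) and 1 lower (Col1a1) in LP, 1 was higher in 0PP, and 2 were higher and 1 lower in 0PP than in LP. The erythroid marker Alas2 was higher in MP and in 0PP, Slc4a1 and the adipocyte marker Adipoq in MP, and Myh6, 1 of the 7 cardiomyocyte markers, was lower in MP. The part of these cells in the results below was not tested. The signal of the 3' minus the 5' beta-actin control probe sets, a measure of RNA integrity, was 1.21 ± 0.13 (SD) in NP/Sed, 1.08 in 7EX, 1.33 in MP and 1.30 in 0PP. Single arrays stood apart from both others of their group by at least 0.4 at 0.449% to 3.03% of all probe sets. At the 74 probe sets of these genes that share was largest in the first MP array (10.8%, above the others at all 8), the second 21EX array (9.46%, below at all 7, in Dmd, Ldb3, Pdlim5, Tpm2 and Ttn), the third LP array (9.46%, above at all 7) and the first 7EX array (8.11%, below at 5 of 6).

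By limma with all arrays, 13 of the 34 genes passed in the F test or in a comparison with NP/Sed. A moderated F test over the 6 groups passed for 8 of the 34 genes (23.5%, beside 10% of all genes), namely Tpm2, Tnnt1, Tnnt2, Myom1, Myom2, Tcap, Flnc and Fhl1. By probe set these were 9 of 74 (12.2%, beside 5.83% of all probe sets), and the genes average more probe sets each than all genes do, which gives them more chances to pass. Against NP/Sed, 2 genes passed in 7EX (5.88%, beside 1.26% of all genes), 4 in 21EX (11.8%, beside 5.16%), 1 in MP (2.94%, beside 2.11%), 2 in LP (5.88%, beside 2.97%) and 4 in 0PP (11.8%, beside 3.86%). Between 0PP and LP limma called 0 of them, beside 1.64% of all genes, with 14 probe sets at an unadjusted p under 0.05 and 1 gene called by Cyber-T. At the 75% change used as the limit by the authors, 3 genes in 21EX and 1 in MP remained, beside 0.72% and 0.368% of all genes. Of the 74 probe sets, 65 have a mean of at least 5, and probe sets that bright are called more often. Among them the shares called were 3.08% in 7EX (beside 1.01% of all such probe sets) and 7.69% in 21EX (beside 4.51%). In MP they were 1.54% (beside 1.89%), in LP 3.08% (beside 3.06%) and in 0PP 7.69% (beside 3.3%). Of all such probe sets 10.2% passed the F test. Arrays that do not overlap those of NP/Sed are more frequent than calls: they occur at 30 of the 74 probe sets in 7EX (40.5%, beside 17.6% of all probe sets), 23 in 21EX (31.1%, beside 22.5%), 20 in MP (27%, beside 17.4%), 11 in LP (14.9%, beside 16.4%) and 30 in 0PP (40.5%, beside 21.1%). Lmod2 passed by limma with all arrays only between LP and 7EX, and 20 genes in none of these tests. Of these 20, Cyber-T called Nebl, Myoz2, Ankrd1, Fhl2 and Rcan1, further alternatives called Tpm3 and Mypn, and 13 were called under no alternative run.

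**Figure D1:**
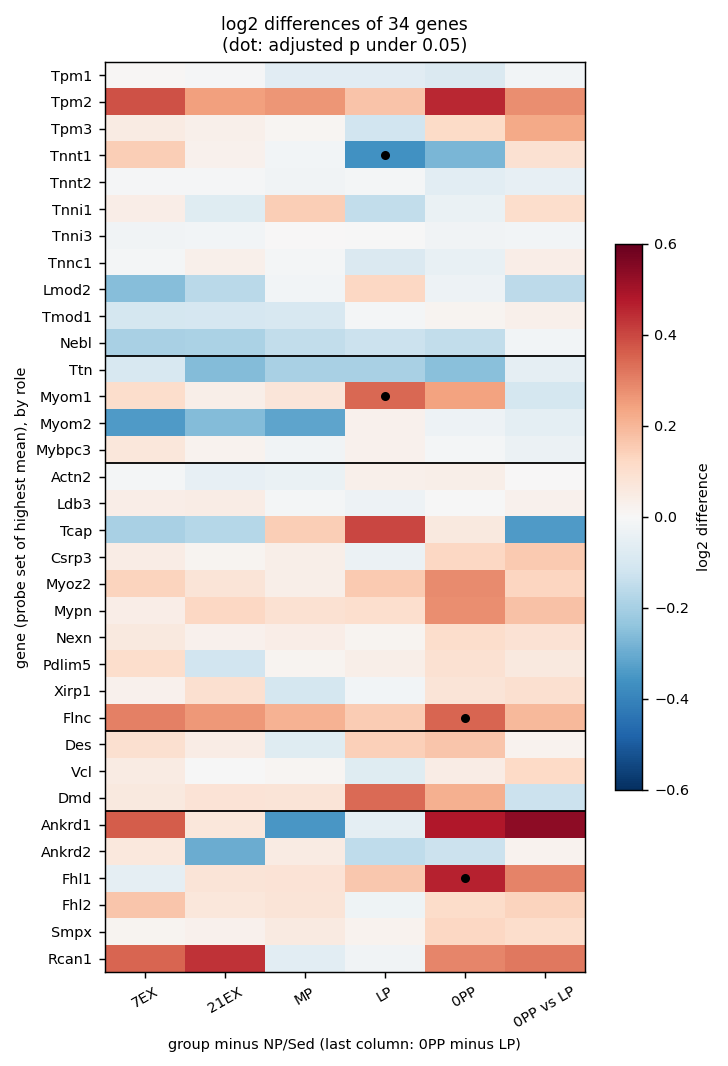
Log2 difference of the highest-mean probe set of each of the 34 genes (one line each, grouped by role, black lines between roles) in 7EX, 21EX, MP, LP and 0PP against NP/Sed and in 0PP against LP, in colour from lower (blue) to higher (red). Dots mark an adjusted p under 0.05: Tnnt1 and Myom1 in LP, and Flnc and Fhl1 in 0PP, carry the only 4 dots.

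At the probe set of highest mean, 19 of the 34 genes (55.9%) differed from NP/Sed by under 0.2 in all 5 comparisons, which is about the share of all 18193 genes that did so (55.4%). They include cardiac troponin I (Tnni3), troponin C (Tnnc1), cardiac troponin T (Tnnt2), alpha-tropomyosin (Tpm1), cardiac myosin-binding protein C (Mybpc3), the Z-disc crosslinker alpha-actinin (Actn2), desmin (Des), the intermediate filament of muscle, and vinculin (Vcl), which links filaments to the membrane. For Tnni3 all 18 arrays lay between 14.16 and 14.22, and its 95% intervals against NP/Sed ran from -0.14 to 0.12. The interval bounds of Actn2 ran from -0.20 to 0.18 and those of Mybpc3 from -0.18 to 0.23. Over the 19 genes the widest bound was 0.383, so changes larger than that lie outside the intervals of these probe sets. Values such as those of Tnni3 lie near the top of the scale, where the highest value in the table was 14.86, and whether their brightness limited the differences was not tested.

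Among the thin filament genes, slow skeletal troponin T (Tnnt1), a troponin isoform of slow muscle and the early heart, was lower in late pregnancy. Its probe set read 7.88, 7.97 and 8.06 in NP/Sed, 7.99, 8.21 and 8.15 in 7EX, 8.03, 7.93 and 8.02 in 21EX, 7.90, 8.07 and 7.90 in MP, 7.66, 7.71 and 7.44 in LP, and 7.57, 7.79 and 7.73 in 0PP. All 6 arrays of LP and 0PP lay below all 12 arrays of the other groups. As in any bulk tissue, fewer cells of a type and less RNA per cell cannot be told apart here. Tnnt1 fell by 0.37 ± 0.09 in LP (adjusted p = 0.0436), a level 0.776 times that of NP/Sed, and by 0.51 ± 0.09 between 7EX and LP (adjusted p = 0.00221). Cyber-T did not call Tnnt1 in LP against NP/Sed. It was also lower in LP than in 21EX (-0.39 ± 0.09, adjusted p = 0.0195) and in 0PP than in 7EX (-0.42 ± 0.09, adjusted p = 0.0387). In 0PP against NP/Sed the difference was -0.27 (adjusted p = 0.111). Of all 26 calls made among these genes, that between LP and 7EX was the only one kept whichever 1 array was left out. The call against NP/Sed was lost without any of 12 arrays (adjusted p 0.0503 to 0.201) and with RNA integrity, the mean 3' minus 5' value of beta-actin and Gapdh, as a covariate (0.0540), that against 21EX without array 1 or 3 of 21EX or array 3 of LP (0.0682 to 0.113), and that of 0PP against 7EX without any of 8 (0.0508 to 0.169). Gene counts for these pairs were 5 of the 34 between LP and 7EX (14.7%, beside 5.02% of all genes), 3 between LP and 21EX (8.82%, beside 5.22%) and 2 between 0PP and 7EX (5.88%, beside 0.995%). In the other 6 pairs of groups limma called 0 of the 34, with 5 to 22 of the 74 probe sets at an unadjusted p under 0.05. The shares of all genes there were 0.0055% between 21EX and 7EX, 2.57% between LP and MP, 1.06% between 0PP and MP, 1.1% between MP and either exercise group, and 0.649% between 0PP and 21EX.

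Beta-tropomyosin (Tpm2), a minor tropomyosin in the adult mouse ventricle, rose after 7 days of running. The probe set 1419739_at read 5.71, 5.51 and 5.90 in NP/Sed and 6.29, 6.50 and 6.31 in 7EX, and between 5.79 and 6.33 in the other 12 arrays. The 7EX arrays did not overlap those of NP/Sed. The rise was 0.66 ± 0.11, or 1.58-fold (95% interval 0.43 to 0.89, adjusted p = 0.0113), and it passed no longer without array 2 of NP/Sed or of 7EX (0.0687 and 0.0715) or with the 3' minus 5' covariate (0.147). From 7EX to LP the same probe set fell by 0.47 ± 0.11 (adjusted p = 0.0220, and 0.0571 to 0.122 without array 2 or 3 of 7EX or array 1 or 3 of LP, and 0.230 with the covariate). The remaining 3 probe sets of Tpm2 differed in 7EX by 0.38, 0.38 and 0.20, and all 4 were above NP/Sed in all 5 groups without another limma call against NP/Sed. Cyber-T also called Tpm2 higher in 0PP, by 0.45 at the brightest probe set, 1419738_a_at (adjusted p = 0.0314), and by 0.48 at 1425028_a_at (0.0401).

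Leiomodin 2 (Lmod2), which elongates thin filaments at their pointed ends, was lower in 7EX than in LP. Its arrays read 11.93, 11.89 and 11.62 in NP/Sed, 11.53, 11.60 and 11.54 in 7EX, 11.56, 11.72 and 11.68 in 21EX, 11.86, 11.75 and 11.79 in MP, 11.93, 12.004 and 11.88 in LP, and 11.84, 11.78 and 11.72 in 0PP. LP lay above 7EX at every array, and NP/Sed lay above 7EX at every array and overlapped LP. The difference of LP from 7EX was 0.38 ± 0.08 (adjusted p = 0.0118). It was 0.0573 and 0.0590 without array 3 of 7EX or array 2 of LP, and 0.0815 with the 3' minus 5' covariate. Tropomodulin 1 (Tmod1), the pointed-end cap, differed from NP/Sed by -0.10 to 0.02. The slow skeletal troponin I gene (Tnni1) differed by -0.15 to 0.15, and the Z-disc-bound nebulette (Nebl) by -0.19 to -0.13 at its highest-mean probe set and by -0.69 to -0.24 at its other 2, without a limma call (Cyber-T called it in all groups but LP). The 5 probe sets of Tpm3 differed from NP/Sed by -0.24 to 0.13.

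**Figure D2:**
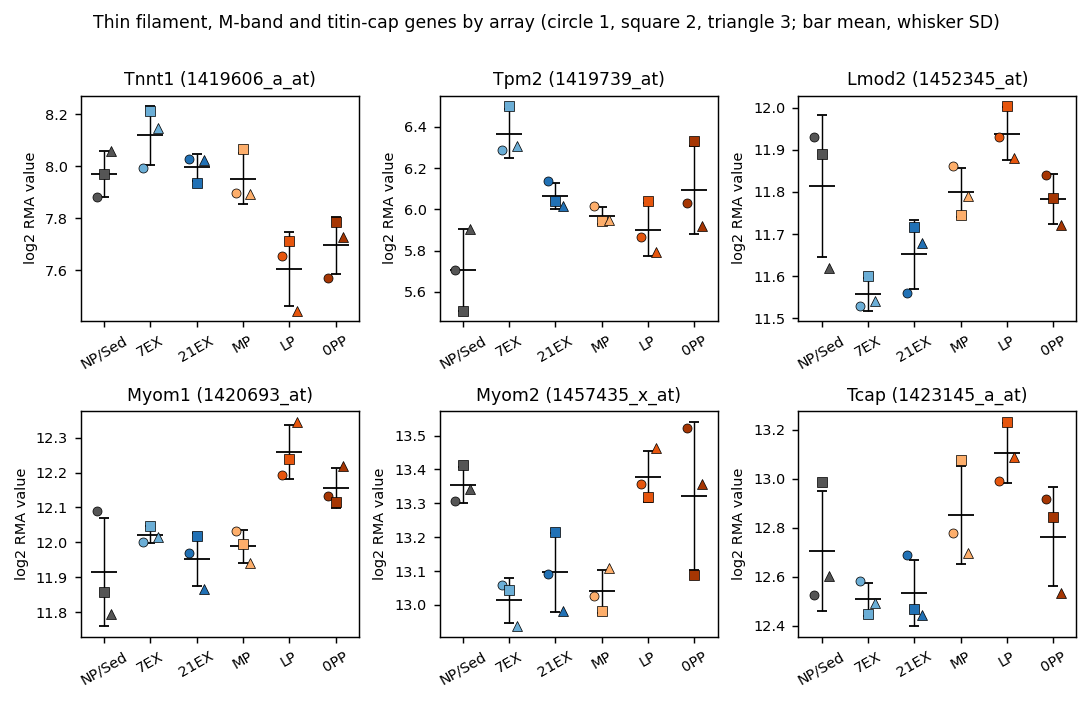
Log2 RMA value in each of the 18 arrays for Tnnt1, Tpm2 (1419739_at), Lmod2, Myom1, Myom2 (1457435_x_at) and Tcap, by group (circle, square and triangle are arrays 1, 2 and 3, the bar is the mean and the whisker the SD). Tnnt1 in LP and 0PP lies below every array of the other groups, and Myom1 in LP above every array of the other groups except 1 of 0PP.

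The M-band gene Myom1, myomesin 1, which crosslinks thick filaments, moved the opposite way in late pregnancy. It read 12.09, 11.86 and 11.79 in NP/Sed, 11.9998, 12.05 and 12.02 in 7EX, 11.97, 12.02 and 11.87 in 21EX, 12.03, 11.99 and 11.94 in MP, 12.19, 12.24 and 12.35 in LP, and 12.13, 12.11 and 12.22 in 0PP. Both late groups lay above all other arrays. Myom1 rose by 0.35 ± 0.08 in LP, 1.27-fold (adjusted p = 0.0322), and was 0.31 ± 0.08 above 21EX (adjusted p = 0.0403). The first call was lost without array 2 or 3 of NP/Sed or any LP array (0.0564 to 0.173), the second without any of 9 arrays (0.0516 to 0.175). Cyber-T did not call Myom1 in LP against NP/Sed. In 0PP the difference from NP/Sed was 0.24 (adjusted p = 0.114).

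Myom2, myomesin 2, the isoform of fast fibres and the adult heart, had 3 bright probe sets that behaved alike. At 1457435_x_at the arrays read 13.31, 13.41 and 13.34 in NP/Sed, 13.06, 13.04 and 12.94 in 7EX, 13.09, 13.21 and 12.98 in 21EX, 13.03, 12.98 and 13.11 in MP, 13.36, 13.32 and 13.46 in LP, and 13.52, 13.09 and 13.36 in 0PP. All 9 arrays of the exercise groups and MP lay below all of NP/Sed and LP. The F test passed at this probe set (adjusted p = 0.0335) and at 1450917_at (0.0479), and LP was 0.37 ± 0.09 above 7EX (adjusted p = 0.0405). Cyber-T called the gene lower in 7EX, 21EX and MP. The limma call between LP and 7EX was lost without any of 8 arrays (0.0512 to 0.179) and with the 3' minus 5' covariate (0.233). Against NP/Sed the 3 probe sets differed by -0.46 to -0.26 in 7EX, 21EX and MP with adjusted p between 0.0907 and 0.261, and by -0.07 to 0.03 in LP and 0PP. The fourth, 1438372_at, had a mean of 3.45 and differed by -0.02 to 0.06.

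Titin (Ttn), the giant elastic protein, gave different answers at different probe sets. The 2 brightest, 1427445_a_at and 1427446_s_at, designed on full-length cDNA, differed from NP/Sed by -0.26 to -0.05 with no limma call, while Cyber-T called 1427445_a_at lower in 21EX, MP, LP and 0PP and 1427446_s_at in 0PP. The 3 probe sets 1444083_at, 1444638_at and 1446450_at, designed on other database entries, fell in 21EX: 1444083_at by 1.005 ± 0.23 (adjusted p = 0.0271), 1444638_at by 1.31 ± 0.31 (0.0334) and 1446450_at by 0.96 ± 0.21 (0.0243). At 1444638_at the arrays read 12.69, 12.67 and 12.43 in NP/Sed, 11.40, 12.02 and 12.07 in 7EX, 11.66, 10.73 and 11.46 in 21EX, 12.51, 11.10 and 11.49 in MP, 11.61, 12.59 and 11.81 in LP, and 11.95, 11.76 and 11.31 in 0PP. The 7EX, 21EX and 0PP arrays lay below all of NP/Sed, and single arrays of MP and LP reached the NP/Sed range. Cyber-T called 1444638_at lower in every group, and 1444083_at and 1446450_at lower in 7EX, 21EX, MP and 0PP. The limma calls in 21EX were lost without array 2 or 3 of 21EX and, at each probe set, without any of 2 or 3 of the NP/Sed arrays (adjusted p 0.0543 to 0.131). The sixth, 1431928_at, differed by 0.03 to 0.25.

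The same split occurred in other genes. A troponin T probe set, 1440424_at, read 9.88, 9.83 and 9.61 in NP/Sed, 8.87, 9.22 and 8.99 in 7EX, 9.17, 8.70 and 8.84 in 21EX, 9.34, 8.93 and 9.14 in MP, 9.10, 9.67 and 9.28 in LP, and 9.27, 8.82 and 8.82 in 0PP. All but 1 of the 15 arrays outside NP/Sed lay below NP/Sed. It fell by 0.74 ± 0.16 in 7EX (adjusted p = 0.0381), by 0.86 ± 0.16 in 21EX (0.0156) and by 0.80 ± 0.16 in 0PP (0.0186), while the remaining 2 Tnnt2 probe sets differed by -0.06 to -0.01 in every group. Its 7EX call was lost without any of 8 arrays (0.0507 to 0.150) and with the covariate (0.158), its 21EX call without array 2 of 21EX (0.0643), and its 0PP call without array 2 of NP/Sed or array 2 or 3 of 0PP (0.0626 to 0.0903).

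Ldb3 (Cypher), which holds alpha-actinin at the Z-disc, fell in 21EX at 1451999_at alone. That probe set read 10.66, 10.55 and 10.44 in NP/Sed and 9.94, 8.96 and 9.75 in 21EX, with no overlap, and the difference was -1.003 ± 0.25 (adjusted p = 0.0403, and 0.0510 to 0.155 without any of 6 arrays). In 7EX, MP, LP and 0PP 1451999_at differed by -0.58, -0.77, -0.48 and -0.70 without a limma call. Cyber-T called it lower in 7EX, 21EX, MP and 0PP. The probe sets 1416752_at and 1433783_at differed in 21EX by 0.04 and -0.01. For dystrophin (Dmd), which ties the cytoskeleton to the membrane, the dim probe set 1430320_at fell by 0.67 ± 0.17 in 21EX (adjusted p = 0.0428, 0.0510 to 0.165 without any of 9 arrays and 0.0546 with the covariate). Its arrays read 4.09, 4.22 and 4.21 in NP/Sed and 3.67, 3.08 and 3.75 in 21EX, also without overlap, but with a mean of 3.84 this probe set lies below the median of every array. In 7EX, MP, LP and 0PP 1430320_at differed by -0.43, -0.58, -0.23 and -0.08, and Cyber-T called it lower in 7EX, 21EX and MP. The brightest Dmd probe set differed by 0.08 in 21EX and by 0.34 in LP (adjusted p = 0.0825). Alpha-tropomyosin (Tpm1) was called in MP at 1456623_at, with 7.96, 8.82 and 8.26 in NP/Sed and 7.30, 7.33 and 7.74 in MP. The groups did not overlap, and the fall was 0.89 ± 0.20 (adjusted p = 0.0351, and 0.0626 to 0.138 without array 2 or 3 of NP/Sed or any MP array). In 7EX, 21EX, LP and 0PP 1456623_at differed by -0.41, -0.59, -0.39 and -0.20, and Cyber-T called it lower in 21EX and MP. The brightest Tpm1 probe set differed by -0.07 in MP.

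**Figure D3:**
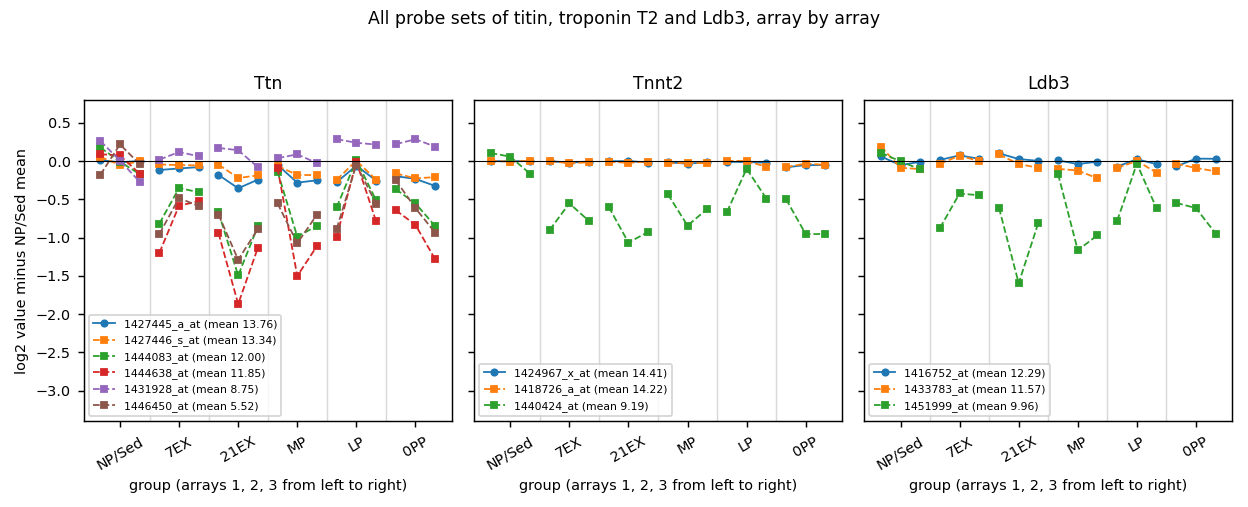
Log2 RMA value minus the NP/Sed mean in each array for every probe set of Ttn, Tnnt2 and Ldb3, by group. The probe sets of highest mean of Tnnt2 and Ldb3 stay near 0, and that of Ttn differs by -0.26 in 21EX. Some others of the same genes drop further, most in array 2 of 21EX, where Ttn 1444638_at reads 10.73. Tnnt2 1418726_a_at, Ldb3 1433783_at and Ttn 1431928_at differ by -0.01 to 0.08 in 21EX.

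Probe sets that are not the brightest of their gene were often below NP/Sed. Of the 40 probe sets that are not the brightest of their gene, 16, in 10 genes, were lower than NP/Sed in all 5 groups (40%), beside 24.2% of the 16752 such probe sets of all genes. Relative to the NP/Sed mean, the median of these 16 was -0.84 in array 2 of 21EX, -0.80 in array 2 of MP and -0.64 in array 1 of 7EX, but -0.11 in array 1 of MP and -0.07 in array 2 of LP. Array 2 of 21EX held the lowest value of all 18 arrays at 6 of the 16. These 16 were picked for being low in every group, so their level is a description only. The median of the other 24 was 0.01, 0.01 and 0.03 in array 2 of 21EX, array 2 of MP and array 1 of 7EX, and that of the 24.2% of all genes' probe sets picked in the same way lay between -0.21 and -0.12 in the 15 arrays outside NP/Sed. Against NP/Sed, the calls of Tnnt1, Myom1, Fhl1 and Flnc were at the probe set of highest mean of their gene, and those of the other genes were not.

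At the Z-disc, filamin C (Flnc), the muscle filamin that bundles actin there and at the membrane, was higher in 0PP than in NP/Sed at both probe sets. At 1449073_at the arrays read 9.08, 8.999 and 8.76 in NP/Sed, 9.20, 9.28 and 9.32 in 7EX, 9.21, 9.26 and 9.12 in 21EX, 9.11, 9.15 and 9.21 in MP, 9.05, 9.15 and 9.38 in LP, and 9.32, 9.47 and 9.50 in 0PP. NP/Sed lay below every other group apart from 1 array of LP, and 0PP had the highest mean. The rise in 0PP was 0.48 ± 0.09, 1.40-fold (adjusted p = 0.0172), and at 1447812_x_at, with 9.05, 9.19 and 9.09 in NP/Sed and 9.34, 9.49 and 9.55 in 0PP, it was 0.35 ± 0.08 (adjusted p = 0.0272). Both were lost without array 3 of NP/Sed or array 2 or 3 of 0PP (0.0672 to 0.104), and the second also with the covariate (0.0514). In the other 4 groups the 2 probe sets differed from NP/Sed by 0.15 to 0.32, with adjusted p between 0.0651 and 0.389. From LP to 0PP they differed by 0.24 and 0.20 (adjusted p = 0.374 and 0.354).

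Pdlim5 (enigma homolog), a scaffold that brings kinases to the Z-disc, was higher in 0PP than in NP/Sed at 1 of its 7 probe sets. At 1427475_a_at the arrays read 8.66, 8.53 and 8.35 in NP/Sed, 8.72, 8.73 and 8.82 in 7EX, 8.77, 8.81 and 8.67 in 21EX, 8.72, 8.77 and 8.90 in MP, 8.62, 8.69 and 9.07 in LP, and 9.06, 9.01 and 9.03 in 0PP. Only the third LP array reached the 0PP level. The rise was 0.52 ± 0.10, 1.44-fold (adjusted p = 0.0172, and 0.0522 to 0.0887 without array 3 of NP/Sed or array 2 or 3 of 0PP). From LP to 0PP it differed by 0.24 (adjusted p = 0.411). Against NP/Sed, the brightest Pdlim5 probe set differed by 0.09 in 0PP, and the other 5 by -0.14 to 0.27.

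Tcap (telethonin), which caps titin in the Z-disc, was higher in late pregnancy than in exercise. It read 12.53, 12.99 and 12.60 in NP/Sed, 12.58, 12.45 and 12.49 in 7EX, 12.69, 12.47 and 12.44 in 21EX, 12.78, 13.08 and 12.70 in MP, 12.99, 13.23 and 13.09 in LP, and 12.92, 12.84 and 12.53 in 0PP. Every LP array lay above every exercise array and, narrowly, above every NP/Sed array, whereas 1 MP array lay within the LP range. LP exceeded 7EX by 0.60 ± 0.13, 1.51-fold (adjusted p = 0.0116), and 21EX by 0.57 ± 0.13 (adjusted p = 0.0170), while its difference from NP/Sed was 0.40 (95% interval bound 0.67, adjusted p = 0.141, and 0.0246 by Cyber-T, which also called 0PP lower than LP). The call against 7EX was lost without array 2 or 3 of 7EX or array 2 of LP (0.0527 to 0.0610) and with the 3' minus 5' covariate (0.151), that against 21EX without array 2 or 3 of either group (0.0521 to 0.0881).

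The other Z-disc genes had no limma call with all arrays, and Cyber-T called Myoz2 in 0PP. Csrp3 (muscle LIM protein), a Z-disc protein that also enters the nucleus, differed from NP/Sed by -0.03 to 0.12, and its 0PP arrays, at 13.43 to 13.51, all lay above those of NP/Sed, at 13.28 to 13.39. Calsarcin 1 (Myoz2), which tethers calcineurin to the Z-disc, differed by 0.03 to 0.28, most in 0PP (adjusted p = 0.0701). Myopalladin (Mypn) differed by 0.04 to 0.28 at its brighter probe set and by -0.38 to -0.10 at the other. Nexilin (Nexn), which binds actin at the Z-disc, differed by 0.02 to 0.10 and Xirp1 (Xin), of the intercalated disc, by -0.11 to 0.09. Among the costamere genes, Des differed by -0.07 to 0.16 and Vcl by -0.07 to 0.05 at the brighter of their 2 probe sets.

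Of the stretch-sensing genes, Fhl1 was higher in 0PP than in NP/Sed, and the values of Ankrd1 and Rcan1 differed widely between arrays. For 4 genes of the Z-disc and stretch response, the promoter windows of RefSeq (build GRCm38.p6, 250 bases before to 50 after the start, written 5' to 3' on the strand of the gene) are shown to let the sequence stand beside the values. Capitals mark an M-CAT element (CATTCC, or GGAATG on the other strand) or a CArG box, motifs bound by TEAD factors and by serum response factor, which are both known from stretch-responsive muscle genes. The windows lie at chr19:36119795-36120094 (minus strand, Ankrd1), chr6:29432903-29433202 (plus strand, Flnc), chrX:56779433-56779732 (plus strand, Fhl1) and chr3:142395647-142395946 (minus strand, Pdlim5).
Ankrd1: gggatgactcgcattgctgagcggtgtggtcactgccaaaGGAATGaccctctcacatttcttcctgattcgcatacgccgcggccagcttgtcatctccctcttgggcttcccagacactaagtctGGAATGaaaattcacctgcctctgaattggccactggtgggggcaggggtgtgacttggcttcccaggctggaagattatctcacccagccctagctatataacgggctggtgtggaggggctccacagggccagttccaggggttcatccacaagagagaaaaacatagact
Flnc: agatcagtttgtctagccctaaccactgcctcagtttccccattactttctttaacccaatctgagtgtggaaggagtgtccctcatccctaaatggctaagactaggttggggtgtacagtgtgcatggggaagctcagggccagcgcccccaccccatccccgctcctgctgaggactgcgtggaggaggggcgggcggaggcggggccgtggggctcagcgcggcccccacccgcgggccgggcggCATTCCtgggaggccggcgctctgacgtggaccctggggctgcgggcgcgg
Fhl1: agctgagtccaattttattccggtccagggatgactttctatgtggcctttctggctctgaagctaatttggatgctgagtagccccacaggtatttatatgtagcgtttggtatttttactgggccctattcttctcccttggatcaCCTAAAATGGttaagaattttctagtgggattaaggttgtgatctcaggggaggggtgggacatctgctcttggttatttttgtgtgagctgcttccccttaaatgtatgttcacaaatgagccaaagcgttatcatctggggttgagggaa
Pdlim5: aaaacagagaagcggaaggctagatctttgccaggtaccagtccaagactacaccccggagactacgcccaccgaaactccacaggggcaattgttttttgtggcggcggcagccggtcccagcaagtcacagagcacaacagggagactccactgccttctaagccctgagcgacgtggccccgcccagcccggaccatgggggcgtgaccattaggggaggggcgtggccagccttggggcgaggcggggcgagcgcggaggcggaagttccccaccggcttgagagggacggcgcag
The Ankrd1 window holds 2 M-CAT elements, that of Flnc 1, that of Fhl1 a single CArG box and that of Pdlim5 none of the motifs searched. Flnc, Fhl1 and Pdlim5 have a second window, not printed: that of Flnc overlaps the first and holds the same M-CAT element, and those of Fhl1 and Pdlim5 hold none of the motifs. Windows were on hand for 30 of the 34 genes (not for Tcap, Myom2, Xirp1 and Nexn), 44 in all, some of which overlap. An M-CAT element on either strand is in 25.0% of them, in 10 genes, beside 14.7% of the 32851 windows of all genes. A CArG box is in 20.5%, in the 7 genes Dmd, Fhl1, Fhl2, Ldb3, Myom1, Nebl and Vcl, beside 1.63%, and a MEF2 site in 11.4%, in the 5 genes Dmd, Fhl2, Mybpc3, Myoz2 and Ttn, beside 3.19%. These are matches of letters, not sites known to be bound.

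Fhl1, a LIM protein that binds titin and takes part in sensing load, was higher in 0PP than in NP/Sed. Its bright probe set 1417872_at read 10.74, 10.62 and 10.80 in NP/Sed, 10.62, 10.68 and 10.69 in 7EX, 10.79, 10.81 and 10.78 in 21EX, 10.81, 10.77 and 10.82 in MP, 10.78, 10.64 and 11.22 in LP, and 11.10, 11.29 and 11.15 in 0PP. The 0PP arrays lay above all others except the third of LP, which read within their range. The rise was 0.46 ± 0.11, 1.38-fold (adjusted p = 0.0343, and 0.0521 to 0.137 without array 2 or 3 of NP/Sed or any 0PP array), and 0PP exceeded 7EX by 0.52 ± 0.11 (adjusted p = 0.0337, and 0.0832 to 0.136 without any array of either group). With the 3' minus 5' covariate these p-values were 0.0542 and 0.366. The other Fhl1 probe set had a mean of 3.44 and differed by -0.17 to -0.08.

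Ankrd1 (cardiac ankyrin repeat protein), the titin-bound stretch gene, swung most widely of the 34 at the brightest probe set. No limma test passed with all arrays, and Cyber-T called it higher in 7EX (adjusted p = 0.00932 at 1420992_at) and 0PP (0.00170) and lower in MP (0.0177). At 1420992_at it read 12.45, 12.24 and 12.30 in NP/Sed, 12.58, 12.69 and 12.81 in 7EX, 12.50, 12.36 and 12.33 in 21EX, 12.12, 12.003 and 11.82 in MP, 11.81, 11.85 and 13.16 in LP, and 12.89, 12.66 and 12.89 in 0PP. The 7EX and 0PP arrays lay above all of NP/Sed, those of MP and the first 2 of LP below, and the third LP array was the highest of all 18. The second probe set, 1420991_at, set the third LP array apart as well, with 11.74, 11.77 and 13.38 in LP. Against NP/Sed the differences at 1420992_at were 0.36 in 7EX, 0.07 in 21EX, -0.35 in MP, -0.06 in LP and 0.48 in 0PP, each ± 0.23, with limma adjusted p between 0.273 and 0.947.

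For these stretch-sensing genes the contrast of 0PP with LP depended on that 1 array. With all arrays, Ankrd1 was 0.54 and 0.58 higher in 0PP than in LP at its 2 probe sets (adjusted p = 0.410 and 0.514). Without the third LP array these values were 0.98 and 1.13 (adjusted p = 0.000294 and 0.00212), and the number of genes called went from 0 to 3, while the share of all genes called went from 1.64% to 0.819%. Rcan1, an inhibitor of calcineurin whose transcript is induced by it, followed the same arrays, with 5.66, 5.88 and 7.86 in LP and 7.01, 7.15 and 7.02 in 0PP at 1416601_a_at, and 9.21, 8.90 and 10.13 in LP and 9.62, 9.61 and 9.95 in 0PP at 1416600_a_at. The third LP array was above all of 0PP at both. Its difference between 0PP and LP went from 0.59 (adjusted p = 0.649) to 1.29 (0.00827), and at 1416600_a_at from 0.31 (0.680) to 0.67 (0.0511). For Fhl1 it went from 0.30 (0.284) to 0.47 (0.0157). Stretch, YAP and serum response factor targets outside the 34 genes were mixed in this array, at the probe set of smallest F-test p. It was the highest of LP for Ccn2 (9.19, 8.54 and 10.13), Nppb (11.55, 11.51 and 12.23) and Acta1 (10.77, 10.99 and 11.85). The same held for Amotl2, Tagln and Tnfrsf12a. It was the lowest of LP for Ccn1 (6.81, 5.17 and 4.55), Srf (8.22, 8.02 and 7.91), Zyx, Mrtfa and Mrtfb, and in between for Myh9, Egr1 and Fos. The array is labelled LP, and the part that its hearts, its pool or its handling have in this was not tested.

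**Figure D4:**
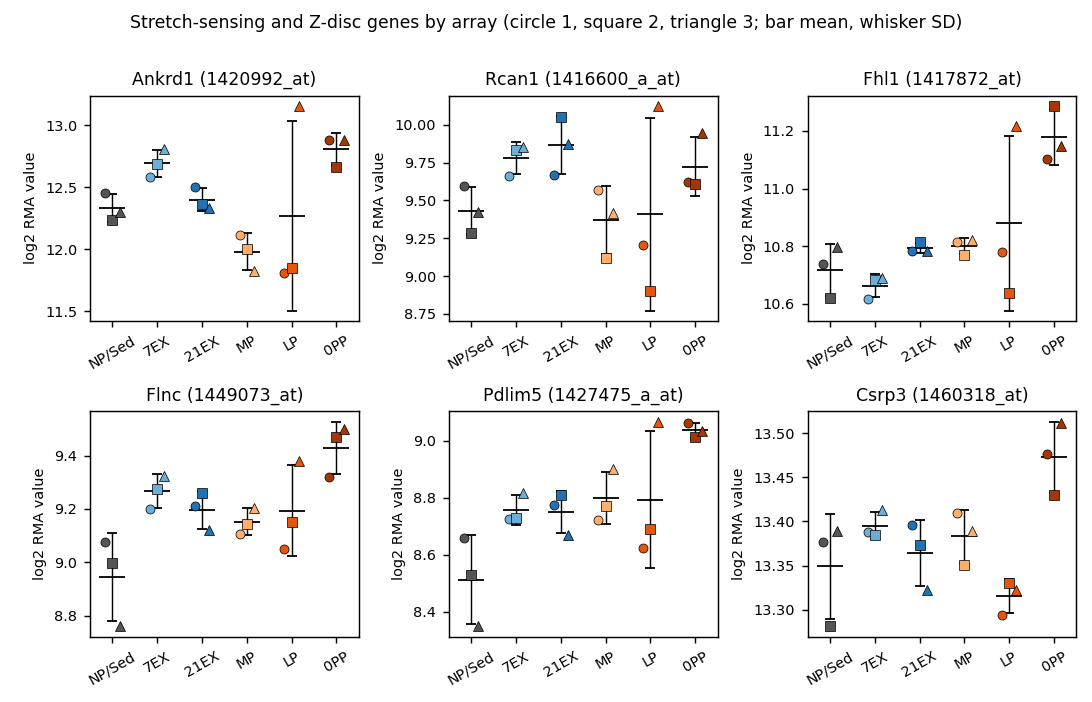
Log2 RMA value in each of the 18 arrays for Ankrd1 (1420992_at), Rcan1 (1416600_a_at), Fhl1, Flnc (1449073_at), Pdlim5 (1427475_a_at) and Csrp3, by group (circle, square and triangle are arrays 1, 2 and 3, the bar is the mean and the whisker the SD). The third LP array (triangle) reads 13.16 for Ankrd1 and 10.13 for Rcan1, above both other LP arrays and all of 0PP.

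The remaining stretch-sensing genes had no limma call with all arrays. Cyber-T called Fhl2 higher in 7EX, and Rcan1 higher in 7EX and 21EX at 1416600_a_at but lower in MP at 1416601_a_at. Fhl2, a LIM protein of the Z-disc and nucleus, differed from NP/Sed by -0.03 to 0.17, and Smpx, a small muscle protein, by 0.02 to 0.13. Ankrd2, the ankyrin repeat protein of skeletal muscle, had a mean of 4.61 and differed by -0.30 to 0.06. Rcan1 1416600_a_at differed from NP/Sed by -0.06 to 0.43 with standard errors of 0.21, so that its interval bounds, -0.50 and 0.87, leave room for changes as large as those called elsewhere. At 1416601_a_at the differences were -0.36 in 7EX, -0.38 in 21EX, -0.76 in MP, -0.53 in LP and 0.06 in 0PP.

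Related genes outside the set were called in small numbers. All lists of related genes were written with earlier results of these data known, so their shares called are a description only. Of 33 measured thin filament, Z-disc and M-band genes, 4 were higher and 1 lower in 0PP than in NP/Sed (15.2%, beside 3.86% of all genes), with a median of 0.07 beside 0.01 for all genes, and 4 were higher and 0 lower in 0PP than in LP (12.1%, beside 1.64%). In LP, 1 was higher and 1 lower (6.06%, beside 2.97%). A gene counts as called at any of its probe sets. Myotilin (Myot), a Z-disc crosslinker, rose by 0.66 ± 0.12 in LP (adjusted p = 0.00741) and by 0.80 ± 0.12 in 0PP (0.00440), and Synpo2l, an actin-binding Z-disc protein, rose by 0.90 ± 0.13 in 0PP (0.00435). Fast myosin-binding protein C (Mybpc2) rose by 0.67 ± 0.11 in 0PP (0.00623), and Tpm4, a nonmuscle tropomyosin, was 0.63 ± 0.12 higher in 0PP than in LP (0.0157). No gene of this list was called in 7EX, 21EX or MP by limma, where 9, 10 and 16 of the 33 had a probe set at an unadjusted p under 0.05. Of 13 costamere and dystrophin complex genes, Sntb1 (syntrophin) alone was called in 0PP (7.69%, beside 3.86% of all genes), 0.75 ± 0.17 higher (adjusted p = 0.0348) at 1 of 6 probe sets. That probe set has a mean of 3.83, below the array medians, and the brightest differed by 0.39. Between 0PP and LP, Vim (vimentin) alone of the 13 was called, higher in 0PP (7.69%, beside 1.64%).

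Of 19 measured genes of calcineurin signalling and sarcomere turnover, 4 were lower in 21EX (Ppp3cb, Fbxo32, Mef2a and Mef2c; 21.1%, beside 5.16% of all genes) and 3 in MP (Ppp3cb, Trim63 and Mef2a; 15.8%, beside 2.11%), with 0 higher in either. A single probe set of the 5 of the calcineurin subunit Ppp3cb fell by 0.65 in 21EX (adjusted p = 0.0228) and by 0.60 in MP (0.0429), and the brightest differed by -0.07 and -0.10. Trim54 (MuRF3), a ubiquitin ligase of the sarcomere, rose by 0.46 ± 0.10 in LP (0.0171) and by 0.39 in 0PP (0.0444). In LP 2 of the 19 were higher (Ppp3r1 and Trim54) and 0 lower (10.5%, beside 2.97%). In 0PP Trim54 was higher and Mef2a lower (10.5%, beside 3.86%). Between 0PP and LP Ankrd23 was higher and Fbxo32 lower (10.5%, beside 1.64%). Fbxo32 (atrogin-1), a ubiquitin ligase of muscle wasting, was 0.60 ± 0.12 lower in 0PP than in LP (0.0213) at 1 of 3 probe sets, with -0.11 at the brightest. Ankrd23 read 10.27, 10.29 and 10.48 in LP and 10.69, 10.85 and 10.93 in 0PP at the probe set of smallest F-test p. Of 14 targets of stretch, YAP and serum response factor, 2 rose in 0PP (14.3%, beside 3.86% of all genes), the natriuretic peptide gene Nppb by 1.26 ± 0.19 (adjusted p = 0.00457) and the cytokine receptor Tnfrsf12a by 1.40 ± 0.20 (0.00435). Skeletal alpha-actin (Acta1) rose by 1.41 ± 0.22 in 7EX (0.00771). The paper had already listed Nppb and Tnfrsf12a among its top genes in 0PP and Acta1 in 7EX, so the shares of this list are a description only. Between 0PP and LP, 3 of the 14 were higher (Myh9, Srf and Nppb) and 0 lower (21.4%, beside 1.64% of all genes). Myh9 was lower in LP than in NP/Sed (7.14%, beside 2.97%). The median of the 14 targets was 0.39 in 0PP, beside 0.01 over all genes, and 0.27 between 0PP and LP, beside 0.00. The mean of the 4 atrial markers, which include the related peptide Nppa, lay between 9.20 and 10.35 in 0PP and between 8.31 and 9.54 in NP/Sed, and its part in these differences was not tested.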

How the data were processed

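Left ventricular RNA of 18 pools was measured on Affymetrix mouse genome arrays. The deposited values are log2 values per probe set, which the authors made with RMA over all arrays (background correction, quantile normalization, summarization), with no filter on low values. The authors tested with Cyber-T. Samples were grouped by their labels. Of 45101 probe sets 64 controls were left out, and of the 45037 tested 34945 have 1 gene, 932 several and 9160 none in the platform annotation used here. Linear models were fitted to the 6 groups together in limma 3.58.1 under R 4.3.3 (12 residual and 6.45 prior degrees of freedom), with Benjamini-Hochberg adjustment within each comparison over all probe sets and a threshold of 0.05.

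A single passing probe set calls its gene, and array values are given for genes called in a main comparison or in the F test. Ankrd1, Rcan1, Csrp3 and Lmod2 were added to these after their values were seen. Each dimmer or brighter probe set speaks for the sequence it was designed on, and pooling of hearts hides the spread between animals. The number of arrays limits the precision. The members and lists were chosen with earlier results of these data known. Alternatives were a 75% change, Cyber-T, fits of 2 groups only, median centring, gene means, a trend of the variance with intensity, a second quantile normalization, a filter on mean log2 under 5, the probe set of highest mean, a replicate block, a covariate for the mean 3' minus 5' signal of the beta-actin and Gapdh controls and each array left out. The fit was tested on simulated data. Motifs were searched on both strands of RefSeq promoter windows.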

Additional observations from a re-analysis of the deposited data

Results flagged for a closer look

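A pregnancy group and an exercise group differed, by a direct limma test between them, for 10 pairs of gene and contrast. From 7EX to LP the log2 difference was -0.514 for Tnnt1, -0.467 for Tpm2 (1419739_at), 0.595 for Tcap, 0.381 for Lmod2 and 0.366 for Myom2 (1457435_x_at). From 21EX to LP it was -0.391 for Tnnt1, 0.308 for Myom1 and 0.569 for Tcap. From 7EX to 0PP it was 0.516 for Fhl1 and -0.424 for Tnnt1. These contrasts do not compare with NP/Sed, whose arrays still enter the common estimate of the spread. The 3' minus 5' beta-actin signal was lowest in 7EX among the 6 groups, and with the mean 3' minus 5' value of beta-actin and Gapdh as a covariate 4 of the 10 still passed.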

How the results depend on the processing

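The number of genes called depended on the settings, in a design of 3 pools a group. Against NP/Sed 2, 4, 1, 2 and 4 of the 34 genes were called in 7EX, 21EX, MP, LP and 0PP, with 0 between 0PP and LP, 8 in the F test and 10 over the other pairs. Cyber-T called 10 in 7EX, 8 in 21EX, 9 in MP, 10 in 0PP and 1 between 0PP and LP, where it called 4.92%, 7.83%, 5.81%, 5.54% and 2.38% of all genes, more than limma's 1.26%, 5.16%, 2.11%, 3.86% and 1.64%. In LP Cyber-T called 2 genes, Tcap and Ttn (2.89% of all genes called), and neither Tnnt1 nor Myom1, the 2 that limma called. An intensity trend gave 4 in 7EX, 3 in MP, 8 in 0PP (1.93%, 3.03% and 5.17% of all genes), 14 in the F test and 18 over the other pairs. A change of at least 75% left 0 in 7EX, LP and 0PP (0.22%, 0.423% and 0.242% of all genes) and 0 over the other pairs. Fits of only the 2 groups gave 5 in 7EX, and 0 in MP and LP (1.34%, 0.77% and 0.649% of all genes). A mean of at least 5 gave 2 in MP (4.4% of the 11601 genes left), and median centring gave 1 in LP (3.56% of all genes). Gene means gave 1 in 7EX, 2 in 21EX and 0 in MP (1.16%, 3.22% and 1.46%). The probe set of highest mean gave 1 in 7EX, 0 in 21EX and 0 in MP (1.22%, 3.63% and 1.37%). It turned Dmd (0.0802) and Ldb3 (0.0441) in 21EX to higher, because another probe set then stands for the gene. The 3' minus 5' covariate gave 0 in 7EX (0.044% of all genes), 1 in LP (2.84%) and 4 over the other pairs. Apart from that of the probe set, the cause was not tested. For 31 single results, each recomputed under its alternatives, 673 of the recomputed values kept their direction and side of the threshold, 199 lost the call (each of the 26 called results at least once), 4 gained one and 2 reversed.

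With each array left out in turn the counts ran from 0 (without array 2 of NP/Sed or 7EX) to 2 in 7EX, from 0 (without array 2 of 21EX) to 5 in 21EX, and from 0 to 5 (without array 1 of MP) in MP. The share of all genes called moved as well. In 7EX it was 0.165% without array 2 of NP/Sed and 0.198% without array 2 of 7EX. In 21EX it was 0.291% without array 2 of 21EX, and in MP 4.85% without array 1 of MP. In LP the counts ran from 0 to 3 (without array 1 of NP/Sed), and in 0PP from 0 (without array 2 or 3 of 0PP) to 9 (without array 1 of NP/Sed). Without array 1 of NP/Sed 4.68% of all genes were called in LP and 6.41% in 0PP. Without array 2 or 3 of 0PP the share in 0PP was 0.621% or 1.07%. Between 0PP and LP the counts ran from 0 to 3 (without array 3 of LP, beside 0.819% of all genes). In the F test they ran from 2 (without array 2 of 7EX) to 10, and over the other pairs from 3 (without array 3 of 7EX) to 15 (without array 3 of LP). All 26 calls kept their direction.

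The labels do not say whether the replicate numbers pair the arrays. Deviations of same-numbered arrays from their group means correlated between -0.27 and 0.18 over 45 pairs of arrays, 7 of them over 0.1. With the replicate number as a block the counts were 1 in 7EX, 2 in 21EX, 0 in MP and 4 in the F test, and within 1.5 times elsewhere. The shares of all genes called were then 0.753% in 7EX, 3.37% in 21EX and 1.51% in MP.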
